A study of Mus musculus with 4 samples.

Results

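The genes described here are 10 regulators of epithelial identity: the grainyhead-like factors Grhl1, Grhl2 and Grhl3, the OVO-like zinc finger factors Ovol1 and Ovol2, the epithelial splicing regulators Esrp1 and Esrp2, and the epithelial ETS factors Elf3, Elf5 and Ehf. They were taken by exact symbol from a table of 23281 genes, and all 10 were listed and passed the filter on low values. The study sequenced RNA from horizontal basal cells (HBCs), the quiescent reserve stem cells of the mouse olfactory epithelium, after culture, and from respiratory basal cells (RBCs), the stem cells of the adjoining respiratory lining, taken straight from the animal. The HBC group has 3 libraries of wildtype cells at passage 3, with no sorting. The RBC group is a single library of microdissected, TdTomato+ sorted cells from mice of the strain KRT5-CreER;Ai9-fl(stop)TdTomato. In such mice an inducible Cre under the keratin 5 promoter switches on a red reporter in keratin 5-expressing cells, and their later descendants keep it. The labels used here state neither age, time of induction nor number of animals, nor whether the 3 cultures came from separate animals.

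Grainyhead-like proteins bind DNA as dimers and maintain the adhesion, tight junction and barrier genes of surface epithelia. OVO-like factors are mostly repressors that hold down genes of epithelial-mesenchymal transition (EMT), such as Zeb1, and grainyhead-like factors, OVO-like factors and ESRP proteins stand on the epithelial side of a mutual antagonism with the ZEB repressors. ESRP proteins are RNA-binding proteins that select the epithelial exons of transcripts such as Fgfr2 and Cd44, and ELF3, ELF5 and EHF are ETS factors largely restricted to epithelia, where they take part in differentiation and secretion.

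Levels are depth-scaled FPKM (fragments per kilobase of transcript, divided by 1 factor per library, so that genes and libraries can both be compared). HBC values are means ± SD (n = 3), and the RBC value has no replicate. A gene was called when limma's adjusted p was under 0.05 and the change on the log2(FPKM + 1) scale was at least 2-fold. The spread in these tests came from the 3 HBC libraries alone, so the p-values take the lone RBC library to vary as they do. What they measure is the spread among these few samples, and that spread may be technical. The deposited values summed to 8377232 to 10855996 in the 3 cultures and to 9877606 in RBCs. The sources used here do not state reads per library.

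The 10 levels added up to 6455 ± 98.5 in HBCs and 6663 in RBCs, just above the highest culture (6567), while the make-up of that sum differed more. Grhl1, Ovol2 and Elf5 were called higher in RBCs and Grhl3 was called higher in HBCs. The other 6, Grhl2, Ovol1, Esrp1, Esrp2, Elf3 and Ehf, differed by less than 2-fold. Thus 3 of 10 were called higher in RBCs, where 34.2% of the 16438 genes tested were, and 1 of 10 was called higher in HBCs, where 12.8% were. Both shares are near those of all genes. The RBC value lay above all 3 HBC values for 6 genes and below them for 4, and 94.1% of all tested genes likewise had an RBC value outside the HBC range. The median log2 change of the 10 genes was 0.73, against 0.45 for all genes tested. The 16438 include 1254 genes at 0 in all 3 cultures, which passed the filter only through RBCs and none of which is a member. Their calls are thus fixed, and they raise both the 34.2% and the 0.45, here and where these are quoted below. In bulk samples, fewer cells of a type and less RNA per cell cannot be told apart.

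**Figure D1:**
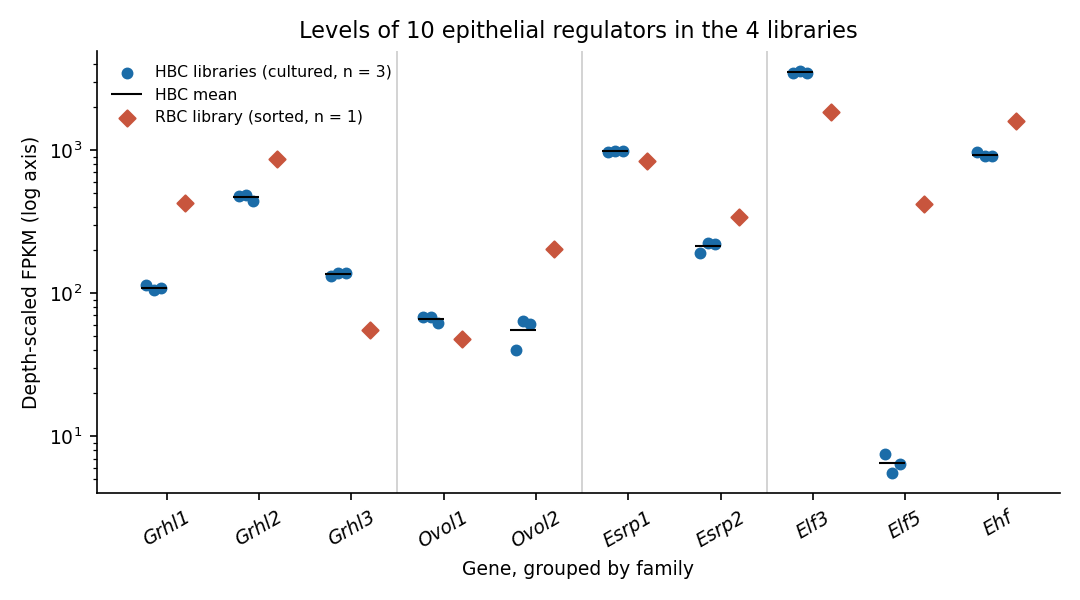
Depth-scaled FPKM (log axis) of the 10 genes in each library, with the 3 HBC libraries as circles, their mean as a line and the RBC library as a diamond. Elf5 lies between 5.54 and 7.48 in the cultures and reaches 418 in RBCs, the widest gap of the 10, while the Esrp1 values nearly coincide.

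The RBC library also held transcripts used as markers of cells other than basal cells. Of 7 basal cell markers, 5 were called higher in RBCs and none in HBCs, beside a 34.2% share of RBC calls in the whole tested set. All 7 were above 10 in both groups. Trp63, the master factor of basal cells, was at 545 ± 12.8 in HBCs and 4296 in RBCs. Krt5 (18579 ± 368 in HBCs and 26422 in RBCs) and Itga6 were not called. Itga6 went the other way, at 1280 ± 21.3 in HBCs and 842 in RBCs, below all 3 cultures. Leukocyte, fibroblast and endothelial markers numbered 18 after the filter, which some passed only through RBCs, and 15 of them were called higher in RBCs. The summed level of the 19 listed was 575 to 628 in HBC libraries and 22598 in RBCs, there mostly from Lyz2 (14733) and Dcn (6885). Cd68, a lysosomal protein of macrophages, was the 1 called higher in HBCs (514 ± 42.5 against 65.5), while Ptprc, the pan-leukocyte marker, was at 0 to 0.374 in HBC libraries and 10.5 in RBCs. All 23 tested markers of ciliated, secretory, sustentacular, tuft and ionocyte cells and olfactory neurons were called higher in RBCs. Of these, 6 were listed at 0 in all 3 cultures. Those 6, and others under 1 in HBCs such as Dnah5 (0.0904) and Bpifb1 (0.216), passed the filter only through RBCs, which favours a call in that direction. Not all of the markers were absent from HBCs, where 5 of the 24 listed averaged at least 10. The sustentacular marker Cbr2 was at 42503 ± 1207 in HBCs and 212906 in RBCs. For the secretory and gland list the summed level was 7.21 to 12.6 in HBC libraries and 558267 in RBCs, there mostly from Bpifa1 (438313). The club cell marker Scgb1a1 was listed at 0 in all 4. The 4 simple epithelial keratins Krt7, Krt8, Krt18 and Krt19 were all called higher in HBCs. Which cells carried these marker transcripts, and their part in the values below, was not tested.

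Among the grainyhead-like factors, Grhl2 was the most abundant in every library, Grhl1 was higher in RBCs and Grhl3 was higher in HBCs. Grhl1, a regulator of desmosomal cadherins and hair anchorage, was at 113.6, 105.5 and 108.5 in HBC libraries 1, 2 and 3 and at 428.5 in RBCs. The cultures lay within a narrow band, and the RBC value was 3.92-fold above their mean (109 ± 4.13, limma adjusted p = 0.000877). Grhl3, which serves epidermal barrier formation and wound closure, was at 133, 139.4 and 139 in the cultures and 55.2 in RBCs. Here the order was the opposite, with all 3 cultures above the RBC library and their mean 2.49-fold higher (137 ± 3.55, limma adjusted p = 0.00137). Grhl2, the family member needed for neural tube closure and airway epithelial integrity, was at 479, 485 and 441 in HBC libraries and 874 in RBCs. Its mean of 468 ± 24 was under the RBC value without overlap, but the log2 change of 0.90 (SE 0.08, limma adjusted p = 0.00523) was below the 2-fold minimum. It exceeded this with values as deposited (1.01), with equal sums (1.002) and under quantile normalization (1.07).

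Ratios between genes in the same library do not depend on the scaling factor. The ratio of Grhl1 to Grhl3 was 0.854, 0.757 and 0.78 in the cultures and 7.77 in RBCs, so Grhl3 exceeded Grhl1 in each culture and Grhl1 exceeded Grhl3 in RBCs. Grhl2 made up 65.5% ± 1.29 of the summed family level in HBCs and 64.4% in RBCs, a difference smaller than the SD between cultures. The share of Grhl1 was 15.3% ± 0.733 and 31.6%, and that of Grhl3 19.2% ± 0.935 and 4.06%. The 2 minor members thus took opposite places, and the RBC share of Grhl2 lay within the range of the cultures (64.0% to 66.5%).

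**Figure D2:**
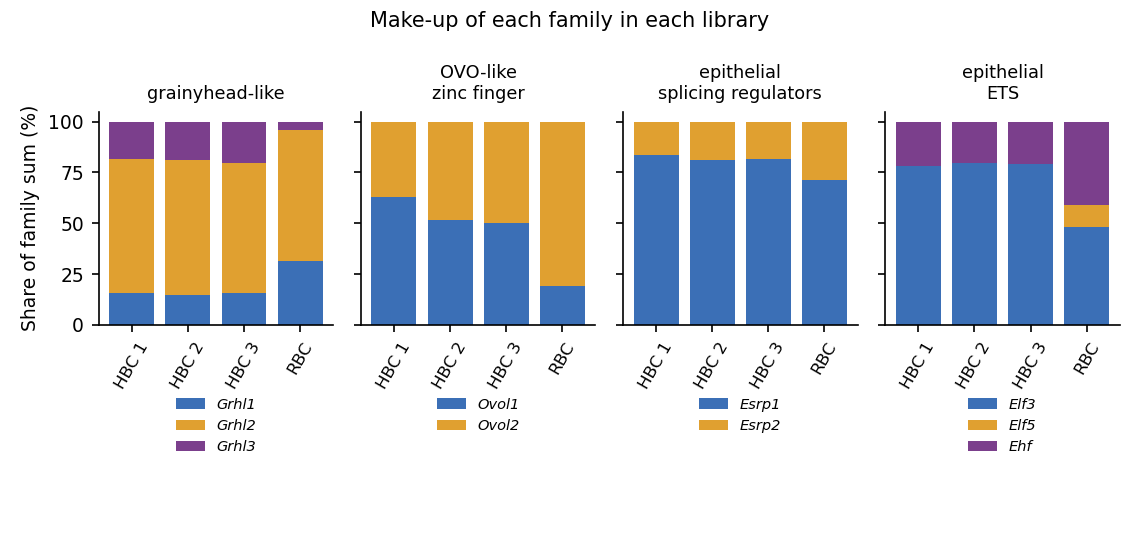
Stacked bars give the percentage of each family's summed level that comes from each gene, in the 3 HBC libraries and the RBC library. The Grhl2 band stays at 64.0% to 66.5% in all 4 bars, Ovol2 widens to 80.9% in RBCs, and Elf5 is visible only in RBCs, at 10.8%.

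RefSeq (build GRCm38.p6) gave upstream windows for 5 of the 10 genes, 7 in all, and those of the genes called higher in RBCs are printed where each gene is described, since these 3 were called in the same direction. Each window is the 250 bases before an annotated start. Both strands were searched for the grainyhead motif AACNGGTT, GGAAG (called the ETS core here), the OVO-like motif CCGTTA and the TATA box TATAAA. Only these letters were counted, and shorter or variant forms were not searched. In the sequences, capitals mark the ETS core or its reverse complement CTTCC. None of the 7 windows held the grainyhead, OVO-like or TATA letters, which 1.79%, 2.18% and 12.4% of 32851 such windows of all genes hold. The ETS core was in 4 of 7, and 64.1% of all windows hold it. Among these 4 is the Grhl3 window, whose start matched no GENCODE M21 transcript of that gene. A match is a description of the letters, not evidence of binding. Grhl1 has an upstream start on the plus strand (chr12:24572037-24572286), with 75.6% G and C and 27 CpG dinucleotides, and a downstream one (chr12:24580469-24580718) with 52% G and C and 0 CpG. The median of all windows is 52.4% G and C.
Grhl1 upstream start: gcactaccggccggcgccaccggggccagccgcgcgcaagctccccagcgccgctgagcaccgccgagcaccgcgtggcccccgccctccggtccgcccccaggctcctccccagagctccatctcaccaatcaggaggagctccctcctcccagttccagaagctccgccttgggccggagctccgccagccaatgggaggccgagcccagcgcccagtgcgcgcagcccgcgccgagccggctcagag
Grhl1 downstream start: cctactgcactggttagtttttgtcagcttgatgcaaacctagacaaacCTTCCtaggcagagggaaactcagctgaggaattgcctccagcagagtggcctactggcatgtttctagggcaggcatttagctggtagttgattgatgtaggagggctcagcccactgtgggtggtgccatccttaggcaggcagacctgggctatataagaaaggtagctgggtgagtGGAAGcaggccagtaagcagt

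Of the OVO-like factors, Ovol2 was higher in RBCs and Ovol1 differed little. Ovol2, which represses Zeb1 and other EMT genes, was at 40.2, 64.2 and 61.3 in HBC libraries and 205 in RBCs. Library 1 was lower than the other cultures, and the coefficient of variation of 23.7% was the highest of the 10 genes, whose median was 4.5%. The RBC value was 3.71-fold above the HBC mean (55.2 ± 13.1, limma adjusted p = 0.0275). The call was lost without HBC library 2 (adjusted p = 0.0775) or library 3 (0.0882) and with values as deposited (0.0691), and ranged from 0.0135 to 0.0882 in all alternatives, while the log2 change stayed between 1.47 and 2.02. Ovol1, a factor of epidermal and hair differentiation that acts downstream of Wnt signalling, was at 67.8, 68.6 and 62 in HBC libraries and 48.2 in RBCs. The log2 change was -0.45 (SE 0.10, limma adjusted p = 0.0361), under the 2-fold minimum. Quantile normalization took it past that minimum, at -1.88. In the cultures the ratio of Ovol2 to Ovol1 was 0.592, 0.935 and 0.989, and in the RBC library it was 4.25. The Ovol2 share of the pair was 45.1% ± 6.86 in HBCs and 80.9% in RBCs.

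The Ovol2 window on the minus strand (chr2:144331363-144331612) has 65.2% G and C and 20 CpG, and it holds the ETS core at 149 and 139 bases before the start.
Ovol2: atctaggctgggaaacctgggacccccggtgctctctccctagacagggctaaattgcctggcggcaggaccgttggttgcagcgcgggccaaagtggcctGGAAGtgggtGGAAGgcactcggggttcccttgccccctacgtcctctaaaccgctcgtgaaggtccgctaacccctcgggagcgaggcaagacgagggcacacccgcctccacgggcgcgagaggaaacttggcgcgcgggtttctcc

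The ESRP genes were the least different of the 4 families. Esrp1 was at 979, 983 and 983 in HBC libraries and 837 in RBCs, and its coefficient of variation between cultures, 0.266%, was the lowest of the 10 genes. The log2 change of -0.23 (SE 0.01) had a limma adjusted p of 0.0017, with cultures this close together, but was far under 2-fold. Over the alternatives the change ran from -0.47 to -0.02 and the adjusted p from 0.000894 to 0.645. Esrp2, which shares most splicing targets with Esrp1, was at 192, 226 and 219 in HBC libraries and 340 in RBCs, with no overlap and a log2 change of 0.68 (SE 0.12, limma adjusted p = 0.0241). Their summed level was 1194 ± 20.3 in HBCs and 1177 in RBCs, a difference smaller than the SD. Esrp1 exceeded Esrp2 by 5.09-, 4.36- and 4.48-fold in the cultures and by 2.46-fold in RBCs. Exons of Esrp2 overlap those of Nfatc3 and 1810019D21Rik on the opposite strand in GENCODE M21. The sources used here do not state the strand setting of the counting, so reads of such pairs may not be told apart. Nfatc3 was at 262 to 283 in HBC libraries and 329 in RBCs, and 1810019D21Rik at 36.7 to 57.4 and 193. Antisense, lincRNA or pseudogene entries on the opposite strand also overlap exons of Grhl2, Ovol1, Ovol2, Esrp1 and Elf3, which carry the same uncertainty.

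The epithelial ETS factors included both the most abundant and the most different of the 10 genes. Elf5, a factor best known from mammary alveolar and trophoblast development, was at 7.48, 5.54 and 6.4 in HBC libraries and 418 in RBCs. No culture came near the RBC value, which was 64.6-fold higher (6.47 ± 0.97, limma adjusted p = 0.00116). Its log2 change of 5.82 (SE 0.21) stood at percentile 96.8 of all genes tested, and all 12 alternatives kept the call. Elf3, which is induced during epithelial differentiation and inflammation, was at 3441, 3583 and 3456 in HBC libraries and 1862 in RBCs. It was the most abundant of the 10 in each library, at percentile 97.4 of tested genes in HBCs and 95.9 in RBCs, and the log2 change of -0.91 (SE 0.03, limma adjusted p = 0.0013) did not reach 2-fold. When library medians were made equal it did, at -1.15. Ehf, a close relative of Elf3 in airway and skin epithelium, was at 967, 906 and 903 in HBC libraries and 1595 in RBCs. This difference also stayed below 2-fold (log2 change 0.79, SE 0.06, limma adjusted p = 0.00394), and quantile normalization took it past that minimum (1.12).

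Within this family Elf3 held a smaller share in RBCs, and Ehf and Elf5 larger ones. The ratio of Elf3 to Ehf was 3.56, 3.95 and 3.83 in the cultures and 1.17 in RBCs. Elf3 supplied 78.9% ± 0.913 of the family sum in HBCs and 48% in RBCs, Ehf 20.9% ± 0.89 and 41.2%, and Elf5 0.146% ± 0.023 and 10.8%. The family sum itself was 4425 ± 65.4 in HBCs and 3875 in RBCs. Beside these values, 5 of 5 tested secretory and gland markers were called higher in RBCs, as were 34.2% of all genes tested. Some of these markers passed the filter only through RBCs. Whether basal or other cells of the RBC sample carried the Elf5 transcripts was not tested.

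Elf5 has a pair of annotated starts on the plus strand, and both windows are shown because no other member differed as much. The first (chr2:103411848-103412097) has 62.8% G and C, 2 CpG and 1 ETS core at 103 bases before the start, and the second (chr2:103423818-103424067) has 56.8% G and C, 8 CpG and no match to the 4 motifs. The deposited table gives 1 value per gene and does not separate the starts.
Elf5 first start: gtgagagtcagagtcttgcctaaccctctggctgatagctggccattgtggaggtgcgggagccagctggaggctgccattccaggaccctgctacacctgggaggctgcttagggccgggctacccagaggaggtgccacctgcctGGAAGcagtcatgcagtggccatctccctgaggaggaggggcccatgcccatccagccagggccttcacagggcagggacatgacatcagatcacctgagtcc
Elf5 second start: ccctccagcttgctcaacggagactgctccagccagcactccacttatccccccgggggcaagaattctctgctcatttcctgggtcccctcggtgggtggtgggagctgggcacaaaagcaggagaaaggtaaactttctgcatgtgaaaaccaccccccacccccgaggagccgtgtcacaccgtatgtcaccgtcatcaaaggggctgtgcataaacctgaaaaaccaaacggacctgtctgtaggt

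**Figure D3:**
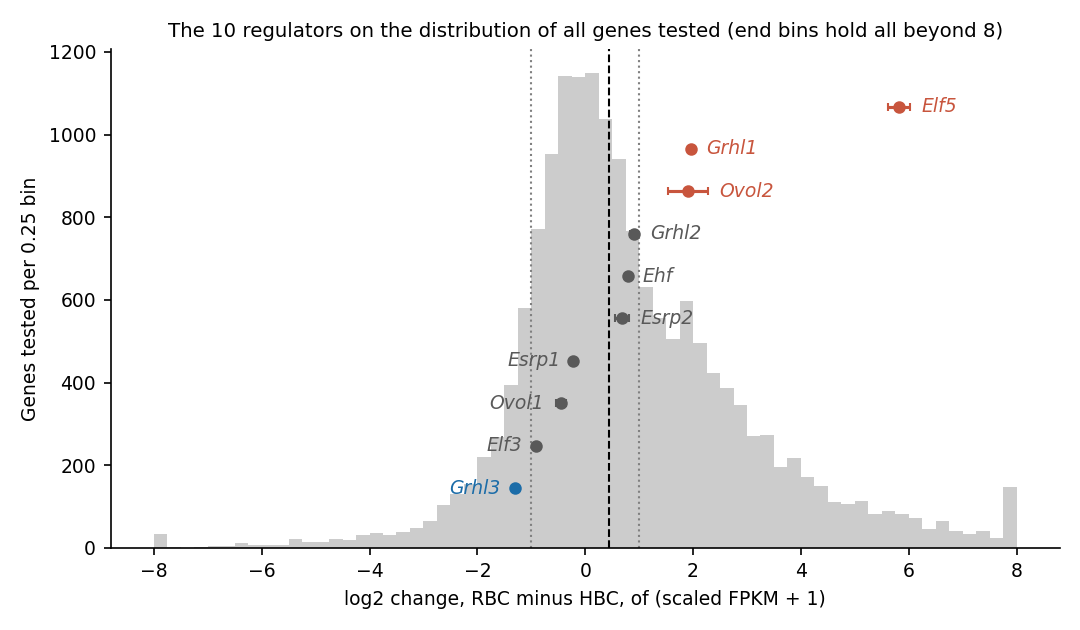
Log2 change (RBC minus HBC) of the 10 genes with standard errors, drawn over the histogram of all 16438 genes tested; dotted lines mark 2-fold, the dashed line the median of all genes (0.45), red and blue points genes called higher in RBCs and HBCs. Elf5 stands in the right tail at 5.82, Grhl1 and Ovol2 near 1.9, and Grhl3 alone passes the line on the left. The height of a point has no meaning.

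The order of the 10 levels was the same in the 3 cultures: Elf3, Esrp1, Ehf, Grhl2, Esrp2, Grhl3, Grhl1, Ovol1, Ovol2 and Elf5, from high to low. Of these neighbours, the ranges over HBC libraries overlapped only for Ovol1 and Ovol2, and the rest were apart. In RBCs Elf3 also came first, followed by Ehf, Grhl2, Esrp1, Grhl1, Elf5, Esrp2, Ovol2, Grhl3 and Ovol1. Elf5 thus moved from rank 10 to rank 6 and Grhl3 from rank 6 to rank 9. With 1 RBC library the order there has no measure of spread.

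For the most abundant gene of each family, by the average of both groups, the 3 genes nearest over the 4 libraries were found among 13461 genes averaging at least 10. Nearness was the Euclidean distance of log2(FPKM + 1). They were Srrt, Dsg2 and Reep6 for Grhl2 (distances 0.077 to 0.0872), and Snapin, Fh1 and H2-Q4 for Esrp1 (0.0541 to 0.0722). Ngfrap1, Canx and Cdk4 lay nearest to Elf3 (0.042 to 0.0756), and Mical3, Barx2 and Lurap1 nearest to Ovol2 (0.389 to 0.426). Dsg2, a desmosomal cadherin, had 463 ± 7.89 in HBCs and 883 in RBCs, and Barx2, a homeobox factor, 54.8 ± 8.88 and 208. With 4 values per gene, of which 3 are near each other, such closeness is a description of level.

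Epithelial junction and barrier genes, among which are several known grainyhead targets, were called higher in HBCs in 8 of 24 cases and higher in RBCs in 2, and the other 14 were not called. These are 33.3% and 8.33% of the list, beside 12.8% and 34.2% for all genes in the same directions. Their median log2 change was -0.64, against 0.45 for all genes tested. The claudin genes Cldn4 (15082 ± 562 against 2163) and Cldn7 (4756 ± 253 against 883) and occludin, Ocln (722 ± 37.8 against 104), changed most in that direction, by 6.97-, 5.39- and 6.92-fold. Epcam, an adhesion molecule and GRHL2 target, was 2.2-fold higher in HBCs (7008 ± 127 against 3189). E-cadherin, Cdh1, stayed under 2-fold (4457 ± 103 against 2417), as did the vesicle GTPase Rab25 (2867 ± 83 against 1808). Setting the medians equal took Cdh1 past the minimum (log2 change -1.13), and quantile normalization took Epcam below it (-0.85). The 2 genes called higher in RBCs were Arhgef19, a GRHL3 target in planar cell polarity (799 against 117 ± 3.48, 6.84-fold), and the desmosomal linker Dsp (2449 against 716 ± 5.42, 3.42-fold). Tgm1, a cross-linking enzyme of the epidermal barrier and GRHL3 target, was at 60.6 ± 7.47 and 81.5, and its direction turned under quantile normalization (log2 change 0.43 against -0.55). Limma's adjusted p was 0.00152 or less for Cldn4, Cldn7, Ocln, Epcam, Cdh1, Arhgef19 and Dsp. In the same libraries all 4 simple keratins were called higher in HBCs.

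Among 9 tested EMT factors and mesenchymal genes, RBCs were higher in 3 calls and HBCs in 1, and 5 genes were not called (median log2 change 1.29). These shares, 33.3% and 11.1%, lie near the 34.2% and 12.8% of all tested genes. The ZEB factors were low in all 4 libraries: Zeb1 was at 3.52, 1.66 and 1.31 in HBC libraries and 6.42 in RBCs, and Zeb2 at 3.38, 2.09 and 1.75 and 2.28. Neither was called (limma adjusted p = 0.114 and 0.948). Zeb1 passed without HBC library 1 (0.0295), its direction turned under quantile normalization (log2 change -0.997), and Zeb2 was called higher in HBCs under quantile normalization (-1.92). Snai1 was at 1.67, 2.01 and 0 in HBC libraries and 9.35 in RBCs (limma adjusted p = 0.101), and it was called without HBC library 3 (0.0213). Snai2, which basal cells of stratified epithelia also express, was 2.86-fold higher in RBCs (869 against 304 ± 41.5, limma adjusted p = 0.013). That call was lost without HBC library 1 (0.0609). Vimentin, Vim (249 against 97.2 ± 3.92), and N-cadherin, Cdh2 (294 against 28.8 ± 1.51), were 2.56- and 10.2-fold higher in RBCs. Twist1 was higher in HBCs (16.1 ± 0.755 against 6.47), though not with values as deposited (limma adjusted p = 0.0501) or a pseudocount of 10 (log2 change -0.67). Fn1 (231 ± 6.77 and 322) and Prrx1 (12.1 ± 1.38 and 9.96) were not called, Prrx1 passing under quantile normalization (-2.50), and Twist2 was listed at 0 in all 4 libraries. Beside these, 6 of 6 fibroblast markers were called higher in RBCs, where 34.2% of all genes tested were. The summed level of these markers was 43.9 to 66.4 in HBC libraries and 7688 in RBCs, mostly from Dcn (43.9 ± 11.8 and 6885). Their part in the mesenchymal values was not tested.

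**Figure D4:**
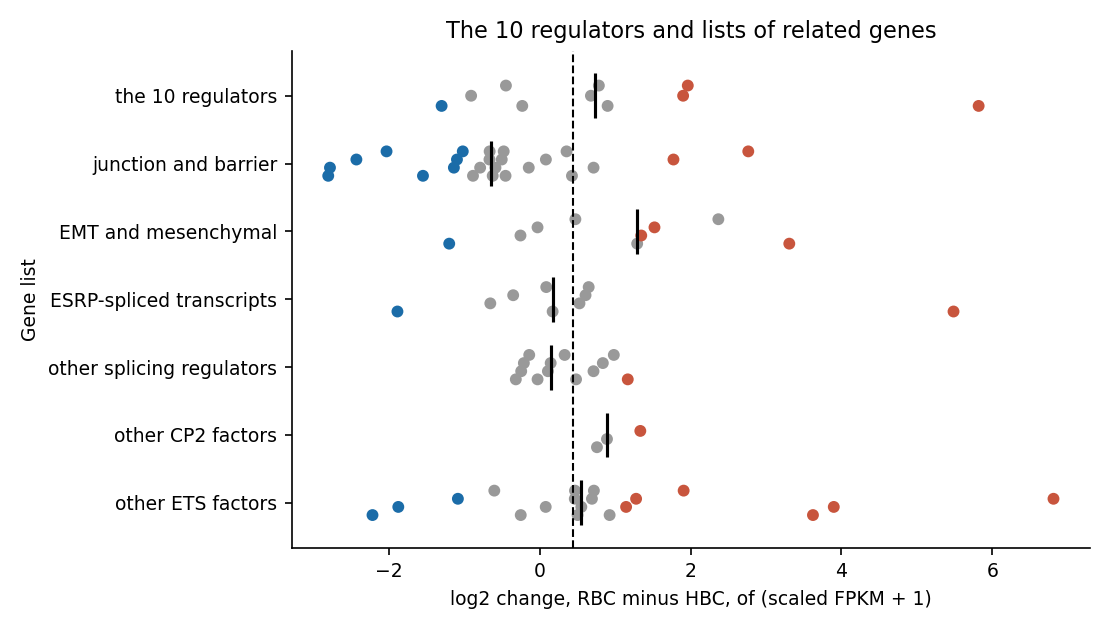
Log2 change (RBC minus HBC) of each tested gene in the 10 regulators and 6 lists of related genes, red where called higher in RBCs, blue where called higher in HBCs, grey where not called; black bars are list medians and the dashed line is the median of all genes (0.45). The junction and barrier list has its median at -0.64, left of the line, and Fgfr2 (5.48) stands apart among the ESRP-spliced transcripts.

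Transcripts known to be spliced by ESRP proteins included a pair of large and opposite differences in gene level. Fgfr2, whose epithelial isoform receives mesenchymal FGF signals, was at 37.8, 31.4 and 30.6 in HBC libraries and 1526 in RBCs. That is 45.9-fold higher (33.3 ± 3.93, limma adjusted p = 0.000893), and no culture came near the RBC value. Cd44, a hyaluronan receptor, went the other way, 3.7-fold higher in HBCs (1972 ± 50.1 against 534, limma adjusted p = 0.000412). The other 7 of the 9 were not called: Ctnnd1 (2206 ± 33.6 and 1403), Enah (478 ± 11.9 and 751), Scrib (268 ± 15.1 and 409), Slk (876 ± 27.9 and 687), Magi1 (44.9 ± 1 and 65.1), Arhgef11 (318 ± 3.64 and 339) and Arhgap17 (161 ± 2.53 and 182). Calls were 11.1% of the list in each direction, beside 34.2% of all genes tested higher in RBCs and 12.8% higher in HBCs. The deposited values are per gene, so the isoforms that ESRP proteins select are not analysed here.

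Of the other splicing regulators, 12 of 13 tested were not called, and the median log2 change was 0.15. Among those not called, Mbnl1 came closest to the 2-fold minimum (481 ± 1.39 in HBCs and 952 in RBCs, log2 change 0.98). Calls higher in RBCs and HBCs were 7.69% and 0% of the list, beside 34.2% and 12.8% of all genes tested. Rbfox2, which promotes mesenchymal exons, had 358 ± 7.29 in HBCs and 451 in RBCs, and Qk, another such regulator, 288 ± 6.43 and 516. Rbm47, an RNA-binding protein of epithelia, was at 347 ± 19.5 and 315. The 1 gene called, Rbfox1, was low (2.35 ± 0.666 against 6.42, limma adjusted p = 0.0477). Its call was lost in 8 alternatives, among them those without each HBC library (0.0691, 0.146 and 0.0551 for libraries 1, 2 and 3), over a range of 0.0225 to 0.146. Under quantile normalization its direction turned (log2 change -1.12), and a minimum of 5 left it out of the test.

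The 3 CP2 factors, relatives of the grainyhead-like proteins with broader expression, were all at higher values in RBCs. The median log2 change of all genes tested was also above 0, at 0.45. The 1 call is 33.3% of the list, near the 34.2% of all genes. Tfcp2 was called (149 against 58.6 ± 6.01, 2.54-fold, limma adjusted p = 0.00922), but not without HBC library 1 (0.0513) or under quantile normalization (log2 change 0.72). Tfcp2l1 (340 against 183 ± 8.35) and Ubp1 (624 against 368 ± 8.99) were under 2-fold. Tfcp2l1 reached it with values as deposited (1.005). Ovol3 is not analysed here.

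Among 19 other ETS factors tested, RBCs were higher in 6 calls and HBCs in 3, and 10 genes were not called, with a median log2 change of 0.55. These shares, 31.6% and 15.8%, are near the 34.2% and 12.8% of all genes tested. The RBC shares count genes at 0 in all cultures, 2 of them here and 1254 among all genes. Spdef, a factor of goblet and other secretory cells, was at 0.714, 1.15 and 0 in HBC libraries and 172 in RBCs. It passed the filter only through the RBC value. Spi1, the myeloid factor PU.1, was listed at 0 in each culture and at 13.9 in RBCs, the endothelial factor Erg at 0 and 2.75, and its relative Fli1 at 0 and 0.64. The calls of Spi1 and Erg are fixed by the filter, since a gene at 0 in all cultures passes it only through RBCs, and Erg fell below 2-fold under quantile normalization (log2 change 0.48) and with a pseudocount of 10 (0.35). Spib, a factor of lymphoid and some specialised epithelial cells, was at 4.03, 1.8 and 1.42 in HBC libraries and 38.9 in RBCs. Its call (limma adjusted p = 0.0173) was lost without HBC library 2 (0.0785) or 3 (0.0609) and under quantile normalization (0.0894). Beside these, 5 of 7 leukocyte, 4 of 5 endothelial and 5 of 5 secretory markers that passed the filter were called higher in RBCs. Some of these markers passed it only through RBCs. Their part in these ETS values was not tested.

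The remaining calls among the other ETS factors went both ways. Elf4 (110 ± 6.42 against 29.2) and Elk3, a ternary complex factor that partners SRF (514 ± 11 against 110), were 3.76- and 4.67-fold higher in HBCs, and Etv4, an FGF-responsive factor, was 2.13-fold higher (195 ± 9.41 against 91.3). Etv4 fell under the minimum with values as deposited (log2 change -0.97) and equal sums (-0.98). Ets1 was 2.22-fold higher in RBCs (358 against 161 ± 5.2), though not with the medians set equal (0.90). Elk4, named here only to complete the count and chosen after its values were seen, was 2.44-fold higher in RBCs (256 against 105 ± 2.05). Elf1 (521 ± 9.66 and 765), Elf2 (333 ± 20.1 and 549) and Ets2 (1954 ± 42.1 and 2066) were not called, and the direction of Ets2 turned with the medians set equal (-0.16). Limma's adjusted p was 0.00358 or less for Elf4, Elk3, Elk4, Etv4 and Ets1.

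**Figure D5:**
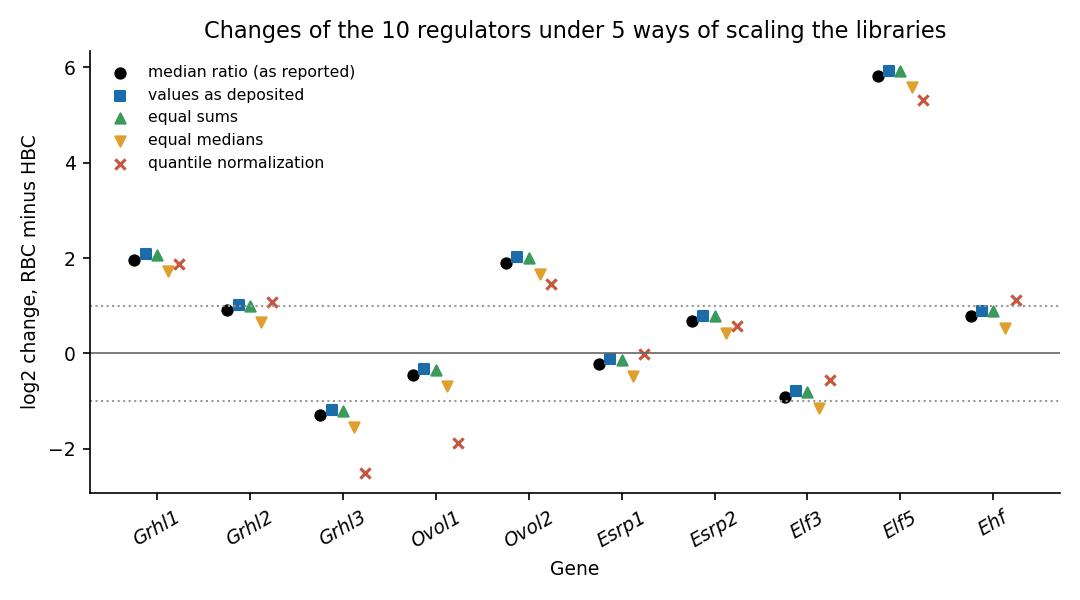
Log2 change (RBC minus HBC) of the 10 genes under 5 ways of scaling the libraries; dotted lines mark 2-fold. No gene crosses 0. Grhl2, Elf3, Ehf and Ovol1 cross a 2-fold line in at least 1 of them, and Elf5 stays above 5.

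The scaling itself moved the comparison of all genes. Across all tested genes the median log2 change, 0.45, was 0.11 higher with values as deposited and 0.10 higher with equal sums, and it fell by 0.25 with equal medians and fell by 0.49 under quantile normalization. Calls higher in RBCs made up 72.8% of all calls, 63.6% with equal medians and 47.9% under quantile normalization. Relative to the median of all genes, the log2 changes of the members were 5.37 for Elf5, 1.52 for Grhl1, 1.45 for Ovol2, 0.45 for Grhl2, 0.34 for Ehf and 0.23 for Esrp2. Those of Esrp1 (-0.68), Ovol1 (-0.89), Elf3 (-1.35) and Grhl3 (-1.75) lay on the other side. The direction of each of the 10 genes was the same in all 12 alternatives, and 5 of them kept their call or lack of one throughout.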

How the data were processed

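RNA was sequenced from 3 HBC cultures and 1 RBC sort. Per the submitters' processing notes, the tools were STAR, Cuffnorm and Cufflinks 2.2.1, and the build was mm9, with no role or order stated. The annotation is not given in sources used here. The authors deposited 1 table of values named FPKM. In genes below 4 in all libraries, the ratio between libraries was within 2% of 1 for 12.4% to 26% of genes over the 6 pairs of libraries, so division by library depth was not apparent.

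Values were divided by 1 factor per library (median ratio to the geometric mean over 11134 genes at 10 or more in all 4: 0.845, 1.05, 1.07 and 1.06). The limma package 3.58.1 (R 4.3.3) was fitted to log2(value + 1) (mean-variance trend, two-sided, Benjamini-Hochberg) for 16438 genes whose mean of group values was at least 1. Since read depth is unknown, counting intervals are left out. No p is given for genes listed at 0 in all cultures, whose call the filter fixes, and a 0 can be a failed estimate.

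The members and the gene lists (148 entries, 145 matched by symbol, 2 by an older symbol) were chosen with earlier results of these data known. All members were named. From the 6 lists of related genes, not the marker lists, every gene was named for lists of up to 10 entries, and otherwise the 3 with the largest change in each direction among those called, plus genes set by symbol. Elk4, Mbnl1 and the markers named fall outside this rule and were chosen after their values were seen. Scaling, pseudocount, filter, trend and left-out cultures were varied. Upstream windows came from RefSeq GRCm38.p6 by symbol, not by coordinates. Each was compared with GENCODE M21, and the start of the Grhl3 window matched no transcript of that gene there.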

Additional observations from a re-analysis of the deposited data

How the results depend on the processing

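No paired analysis was possible because the RBC group has 1 library. Among the 10 regulators, 111 re-computed values kept direction and call, 6 newly passed the threshold, 3 no longer did and 0 turned. Quantile normalization gave 5 members higher in RBCs and 2 higher in HBCs, equal medians gave 2 higher in HBCs, and quantile normalization gave 3238 and 3515 of all genes higher in RBCs and HBCs. For the EMT list, genes higher in HBCs numbered 0 with values as deposited or a pseudocount of 10 and 3 under quantile normalization. Of other splicing regulators, 2 were higher in RBCs with values as deposited or equal sums and 0 with equal medians, either pseudocount, no filter, a minimum of 5 or no trend, and 0 without any 1 HBC library; 2 were higher in HBCs under quantile normalization. The CP2 list had 2 higher in RBCs with values as deposited, 0 under quantile normalization and 0 to 1 without 1 HBC library. The log2 change turned for Zeb2 (0.0585 with values as deposited, 0.0424 with equal sums, -0.17 to 0.17 without 1 HBC library), for Arhgef11 (-0.16), Arhgap17 (-0.0703) and Ets2 (-0.16) with equal medians, and for Tgm1 (-0.55), Zeb1 (-0.997), Magi1 (-0.69), Arhgap17 (-0.19) and Rbfox1 (-1.12) under quantile normalization. The cause of these shifts was not tested. Without 1 HBC library the spread rests on 2 cultures. Low values, as for the ZEB factors, Snai1 and Rbfox1, rest on few reads, and the lone RBC library limits every comparison.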
